A study of Mus musculus with 4 samples.

Results

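The genes described here encode the subunits of the hypoxia-inducible factor (HIF), the hydroxylases and the ubiquitin ligase subunit that control it, and targets that HIF switches on. They were listed by name, with no measured value in the rule but with earlier results of these data known, and all 32 had a row among the 23473 gene rows of the count table. RNA-seq read counts were compared between 2 libraries of cells with stable overexpression of TLX, the orphan nuclear receptor that Nr2e1 encodes, and 2 libraries of control cells whose genotype is given as wild type. Both groups are labelled as MIN6, a line that derives from a mouse insulinoma and commonly stands in for beta cells. Both were kept in DMEM with 25 mM glucose and 15% fetal calf serum. The sources used here do not give the promoter or vector of the TLX transgene, the number of clones behind each group, what the control cells carried or the oxygen level in culture. Nothing says that the replicates came from separate cultures, so the p-values measure the spread between these libraries, which may be technical.

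HIF is a pair of proteins, an alpha subunit (from Hif1a, Epas1 or Hif3a) and a beta subunit (from Arnt or Arnt2). With oxygen at hand, the EGLN prolyl hydroxylases mark the alpha subunit, the VHL protein binds the mark, and the alpha subunit is destroyed, while a further hydroxylase encoded by Hif1an keeps it from its coactivators. When oxygen is short the alpha subunit builds up and turns on genes of glycolysis, blood vessel growth, mitochondrial turnover and matrix modification; in beta cells a lasting HIF response is known to impair glucose sensing. Since the alpha subunit is controlled mainly as a protein, transcript counts of Hif1a do not measure HIF activity.

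Gene rows held 8490145 and 8136185 counts in TLX replicates 1 and 2, and 8435976 and 9788646 in control replicates 1 and 2. Levels are CPM, that is, counts scaled to the same number of reads in every library. The scaling used TMM-scaled totals over the gene rows with enough counts to be tested. Where genes are compared with each other, the same value is given per kilobase of the deposited feature length (RPKM). For a gene with 0 counts the upper limit, set by 3 counts and covering counting error only, was 0.302 to 0.379 CPM depending on the library. The transgene's product was seen as 338 and 281 counts of Nr2e1 with TLX and 8 and 10 in control. The beta cell label met little of its marker set: 8 of 12 beta cell markers, among them Nkx6-1, Neurod1, Slc2a2 and Iapp, had 0 counts in every library. The other 4, Ins1, Ins2, Pdx1 and Mafa, were found in every library at a low level. Ins1 was the highest of them, with a mean of 10.1 CPM with TLX and 9 CPM in control. The 12 summed to 20.8 and 21.7 CPM with TLX and 20.6 and 18.3 CPM in control. The 12 mesenchymal and fibroblast markers summed to 6860 and 6752 CPM with TLX and 6419 and 6060 CPM in control. Of 7 tested markers 2 were called higher, Col1a2 and Sparc (28.6%), and 2 lower, Fn1 and Pdgfrb (28.6%). Among all tested genes the shares were 7.79% higher and 9.04% lower. Most of the sum was Col1a2 (mean of 3859 CPM with TLX and 3187 CPM in control), Vim (1811 and 1620.5 CPM) and Fn1 (586 and 994 CPM). Other markers of the list were near absent: Col3a1, Dcn, Thy1 and Acta2 had at most 6 counts in any library, and Lum was at 0. The 5 leukocyte markers summed to 43.4 and 45.9 CPM with TLX and 59.5 and 68.3 CPM in control, nearly all of it Cd68 and with Emr1 at 0, and the 5 endothelial markers to at most 3.24 CPM in any library. Cd68, the 1 tested leukocyte marker, was called lower, with a log2 fold change of -0.53. In such bulk RNA, fewer cells of a type and less RNA per cell cannot be told apart. The part of these markers in the results was not tested.

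The hypoxia genes did not move as a block when TLX was overexpressed. The stress-responsive gene Ndrg1 fell 2.2-fold, the endoplasmic reticulum oxidase gene Ero1l fell 1.22-fold, and the histone demethylase gene Kdm3a rose 1.55-fold. The other 21 of the 24 genes with enough counts did not pass the test (edgeR quasi-likelihood test, adjusted p under 0.05 over 11024 genes). The share called higher was 1 of 24 (4.17%), against 7.79% of all tested genes, and the share called lower 2 of 24 (8.33%), against 9.04% of all tested genes. In either direction the calls made up 12.5% of the tested hypoxia genes and 16.8% of all tested genes. The median log2 fold change of TLX over control was -0.0023 over the 24 genes and 0.00057 over all tested genes, and 12 of the 24 were positive and 12 negative. Groups did not overlap for 13 of the 24 genes (54.2%), against 57.1% of all tested genes.

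**Figure D1:**
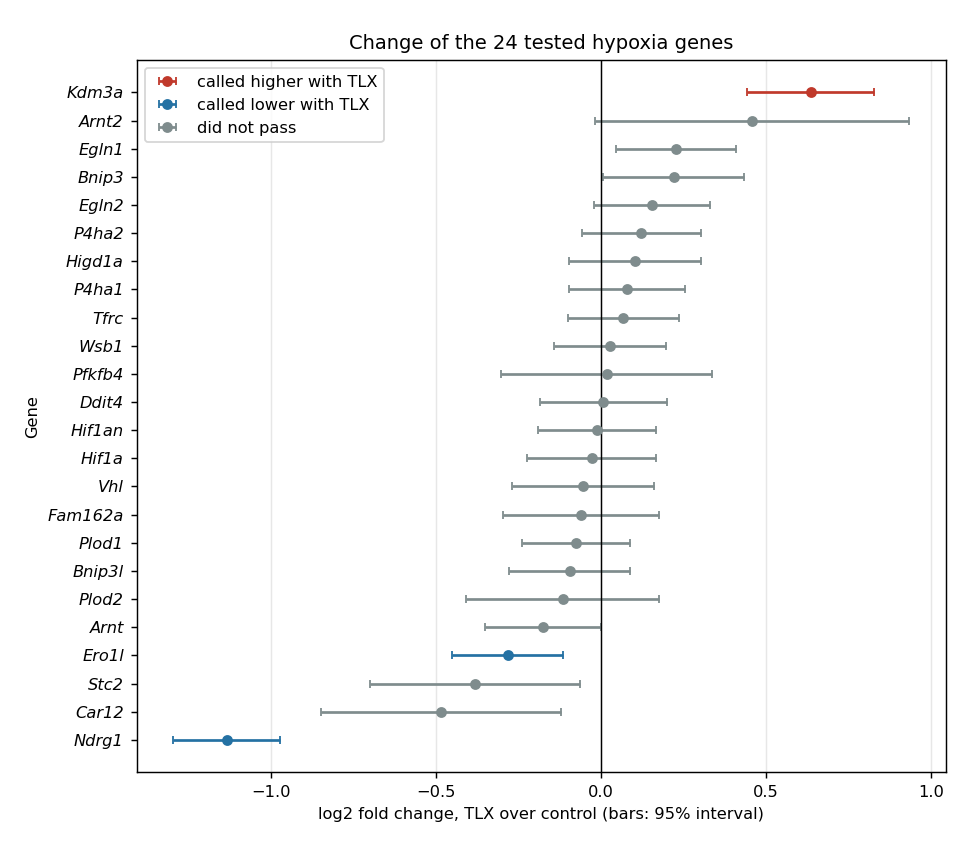
Log2 fold change of TLX over control for the 24 tested hypoxia genes, with 95% intervals from edgeR's quasi-likelihood fit as bars; colours mark genes called higher, called lower or not passed. Ndrg1 stands apart at -1.13, Kdm3a lies highest at 0.64, and the 21 genes that did not pass lie between -0.49 and 0.46.

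For most of the genes that did not pass, the intervals were narrow. In 18 of the 21 the 95% interval of the log2 fold change lay within 0.5 of 0 on both sides. The exceptions were Arnt2, with an interval of -0.019 to 0.93, Stc2, with -0.70 to -0.063, and Car12, with -0.85 to -0.12. A gene that did not pass is not thereby shown to be equal in both groups. At an unadjusted p under 0.05 stood 8 of the 24 (33.3%), against 30.1% of all tested genes.

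The levels of the 32 genes spanned from 0 to 313 ± 4.79 RPKM (mean and SD of Ndrg1 in control). Averaged over the 4 libraries, 19 reached 10 RPKM, 5 lay between 1 and 10 RPKM and 8 below 1 RPKM. Ndrg1 was the highest, at 142 ± 2 RPKM with TLX and 313 ± 4.79 RPKM in control (SD, n = 2). Next in RPKM came Egln2, at 59.4 ± 3.11 with TLX and 53.5 ± 5.44 in control. It was followed by Ddit4 (40.6 ± 1.81 with TLX and 40.5 ± 4.73 in control), Plod1 (38.6 ± 1.14 with TLX and 40.7 ± 2.23 in control) and Fam162a (38 ± 0.997 with TLX and 39.6 ± 1.85 in control), and the order of these last 3 is within the spread of their libraries.

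Several genes known for strong induction in hypoxia were at or near 0 in TLX and control cells alike. The adrenomedullin gene Adm was counted 1 and 0 times in the TLX libraries and 1 and 1 times in the control libraries, Car9 3 and 1 times with TLX and 3 and 0 times in control, and the hydroxylase gene Egln3 1 time in each of the 4 libraries. Ankrd37, which encodes an ankyrin repeat protein, had 11 and 9 counts with TLX and 7 and 8 in control, and Pfkfb3 4 and 4 with TLX and 3 and 4 in control. Stc1 and Hif3a had 0 counts in all 4 libraries. With Epas1, these 8 genes had too few counts to be tested, and 7 of them had at most 4 counts in any library.

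**Figure D2:**
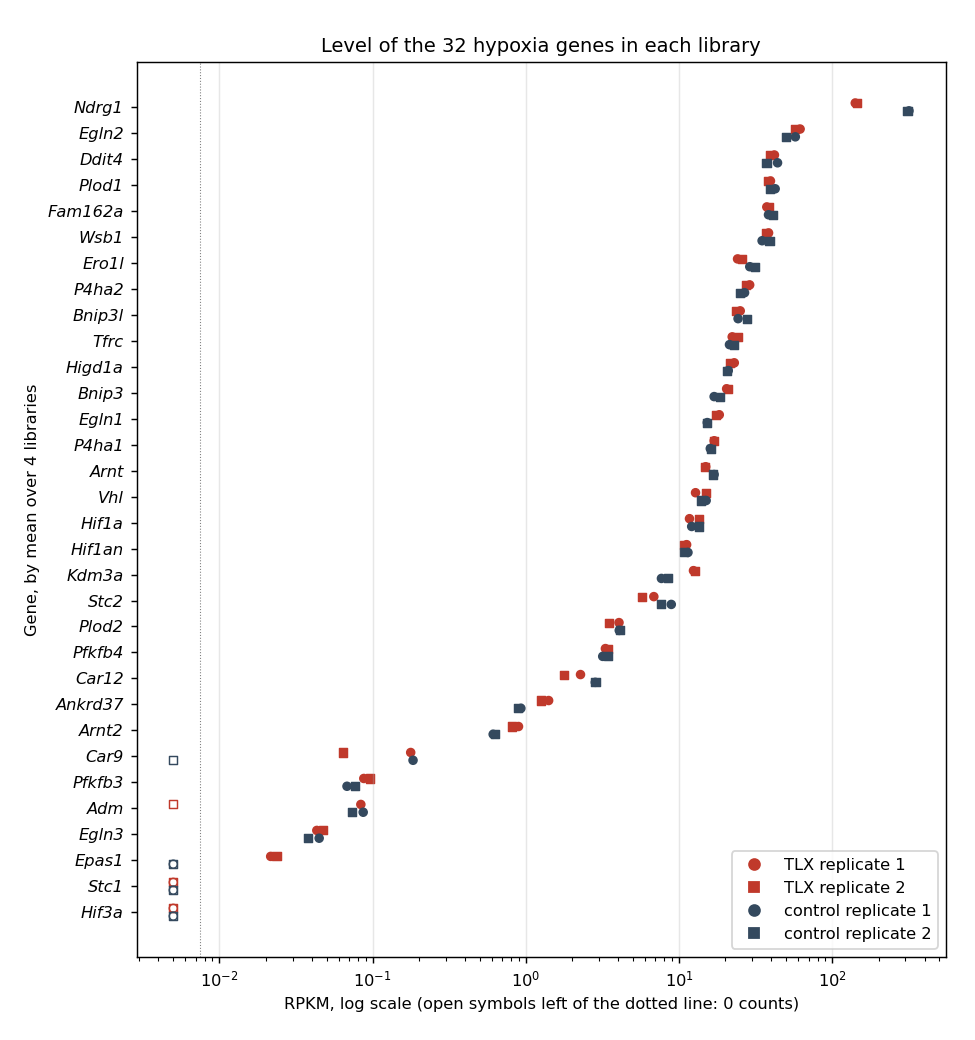
RPKM on a log axis for each of the 32 hypoxia genes, ordered by their mean, with TLX libraries in red and control libraries in dark blue, circles for replicate 1 and squares for replicate 2; open symbols left of the dotted line are counts of 0. The libraries of a gene lie close together over most of the range, and only at Ndrg1 is the gap between TLX and control over 2-fold among the 24 tested genes.

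Transcripts of the HIF subunits came mostly from Hif1a and Arnt, and neither passed the test. Hif1a, the alpha subunit gene of the ubiquitous HIF, stood at 55.6 and 64.3 CPM in the TLX libraries and 57.5 and 64.4 CPM in the control libraries. The groups overlapped, and the log2 fold change was -0.028 (95% interval -0.23 to 0.17; edgeR adjusted p = 0.883). Epas1, the alpha subunit best known from endothelium, had 1 and 1 counts with TLX and 0 and 0 in control, all under the limit of 3 counts. Arnt, the constant beta subunit, was at 65.1 and 64.7 CPM with TLX and 73.9 and 72.8 CPM in control. Both TLX libraries lay below both control libraries, but the difference of -0.18 on the log2 scale did not pass (SE 0.085, adjusted p = 0.165). Arnt2, a beta subunit mostly of neurons, was low at 5.44 and 4.92 CPM with TLX and 3.71 and 3.83 CPM in control, with a log2 fold change of 0.46 that did not pass (adjusted p = 0.185).

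None of the oxygen-sensing enzymes passed the test, although Egln1 came near. Egln1, the main prolyl hydroxylase acting on HIF and itself a HIF target, had 64.4 and 61.6 CPM in the TLX libraries and 53.8 and 53.9 CPM in the control libraries. The TLX libraries were both higher, with a log2 fold change of 0.23 (SE 0.088, adjusted p = 0.0788). Egln1 passed in 0 of 13 alternatives, and its lowest adjusted p among them was 0.0778, in edgeR with DESeq2 size factors. It was called higher when the replicate number was added as a block, a setting outside the 13. Egln2, which encodes a sister enzyme and is the most abundant of the family per length here, had 129.8 and 120.5 CPM with TLX and 121 and 105 CPM in control, and its groups overlapped by the margin between TLX replicate 2 and control replicate 1. Its log2 fold change was 0.15 (adjusted p = 0.232), and without control replicate 1 it passed at an adjusted p of 0.0216 (up to 1.0 over the alternatives). Hif1an, the asparagine hydroxylase that blocks coactivator binding, was at 69.3 and 66.9 CPM with TLX and 70.7 and 66.8 CPM in control (log2 fold change -0.012, 95% interval -0.19 to 0.17). Vhl, which recognises the hydroxylated alpha subunit, was at 34.9 and 40.9 CPM with TLX and 41 and 37.8 CPM in control (log2 fold change -0.055, interval -0.27 to 0.16). Of 4 tested partners of VHL in its ubiquitin ligase, Tceb1, Tceb2, Cul2 and Rbx1, 0 were called higher and 0 lower. Among all tested genes the shares were 7.79% and 9.04%. At an unadjusted p under 0.05 in edgeR stood 0 of the 4, against 30.1% of all tested genes, and 0 passed in DESeq2.

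None of the 4 mitochondrial targets passed the test. Bnip3, a receptor that tags mitochondria for autophagy, stood at 35.8 and 36.5 CPM with TLX and 29.7 and 32.2 CPM in control. Its groups did not overlap, and the log2 fold change of 0.22 did not pass (SE 0.10, adjusted p = 0.152). Its relative Bnip3l had 81.1 and 76.5 CPM with TLX and 78.5 and 89.5 CPM in control, and the groups overlapped (log2 fold change -0.095, adjusted p = 0.518). Higd1a, a protein of the inner mitochondrial membrane, had 42.9 and 40.1 CPM with TLX and 39.2 and 38.3 CPM in control. Fam162a, a mitochondrial protein linked to cell death in hypoxia, had 23.7 and 24.6 CPM with TLX and 24.3 and 26 CPM in control. The log2 fold change was 0.10 for Higd1a (adjusted p = 0.523) and -0.061 for Fam162a (adjusted p = 0.773).

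Enzymes that modify collagen, which HIF turns on in matrix-producing cells, did not pass among the 32 genes. P4ha1 and P4ha2 encode the catalytic subunits of collagen prolyl hydroxylase, and Plod1 and Plod2 encode lysyl hydroxylases. P4ha1 was at 68.5 and 68.4 CPM with TLX and 64.6 and 65.1 CPM in control, P4ha2 at 67.7 and 64.3 CPM with TLX and 62.6 and 58.8 CPM in control. Both lay higher in the TLX libraries, by 0.078 and 0.12 on the log2 scale, and neither passed (adjusted p of 0.589 and 0.374). Plod1 had 128 and 123 CPM with TLX and 138 and 127 CPM in control, and Plod2 15 and 12.9 CPM with TLX and 15.1 and 15.2 CPM in control. Their log2 fold changes were -0.075 and -0.12 (adjusted p of 0.574 and 0.638). Of 5 other tested genes of collagen hydroxylation 2 rose (40.0%) and 0 fell, against 7.79% higher and 9.04% lower among all tested genes: P4hb, which encodes the partner subunit of P4ha1 and P4ha2, by 0.24 on the log2 scale (adjusted p = 0.0381), and the collagen prolyl hydroxylase gene Leprel2 by 0.29 (adjusted p = 0.0329). All 5 had a positive log2 fold change, with a median of 0.24. Neither P4hb nor Leprel2 passed against a 1.2-fold change. P4hb did not pass without either TLX replicate, without control replicate 2 or with total counts or all feature rows as library sizes, nor did Leprel2 in DESeq2 or without TLX replicate 1 or control replicate 2 (over the alternatives, adjusted p of 0.0248 to 1.0 for P4hb and 0.00776 to 0.8 for Leprel2).

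Among secreted and surface targets, Stc2 and Car12 lay lower with TLX without passing. Stc2, the secreted glycoprotein stanniocalcin whose gene also responds to endoplasmic reticulum stress, had 12.3 and 10.2 CPM in the TLX libraries and 15.9 and 13.6 CPM in the control libraries. The log2 fold change was -0.38 (SE 0.15, adjusted p = 0.0933), and it passed without control replicate 2, at an adjusted p of 0.0352 (up to 0.584 over the alternatives). Car12, a carbonic anhydrase of the cell surface that helps to export acid, had 8.44 and 6.56 CPM with TLX and 10.5 and 10.6 CPM in control. Its log2 fold change was -0.49 (SE 0.18, adjusted p = 0.0613). Without TLX replicate 1 it passed, at -0.69 and an adjusted p of 0.0407, as it did with total counts as library sizes (0.0438) and with no filter on low counts (0.0328; up to 0.411 over the alternatives). After Ndrg1, Car12 and Stc2 had the lowest log2 fold changes of the 24. Both were called lower when the replicate number was added as a block, a setting outside these alternatives. Their counts were low, at 106 and 81 with TLX and 133 and 135 in control for Stc2 and 73 and 52 with TLX and 88 and 105 in control for Car12.

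For Pfkfb4, Ddit4, Tfrc and Wsb1, 4 further tested targets, the groups overlapped and none passed. Pfkfb4, an enzyme that sets the pace of glycolysis through its regulatory sugar phosphate, was at 11.1 and 11.5 CPM with TLX and 10.7 and 11.6 CPM in control (log2 fold change 0.017, interval -0.30 to 0.34). Ddit4, which encodes the stress-induced inhibitor of mTOR signalling REDD1, was at 70.5 and 66.2 CPM with TLX and 73.9 and 62.6 CPM in control. Its log2 fold change was 0.0072 (interval -0.19 to 0.20), and the 2 TLX values lay between the 2 control values. Tfrc, the transferrin receptor that brings in iron, had 109 and 118 CPM with TLX and 105 and 112 CPM in control (log2 fold change 0.068, adjusted p = 0.629). Wsb1, an adaptor of a ubiquitin ligase, had 129 and 124 CPM with TLX and 117 and 131 CPM in control (log2 fold change 0.027, adjusted p = 0.87).

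Ndrg1 changed the most of the 24 tested genes. It encodes a cytoplasmic protein tied to differentiation and stress, which hypoxia, iron chelation and other stresses raise, and it is named for its repression by N-myc. It was counted 3524 and 3295 times in the TLX libraries and 7625 and 8876 times in the control libraries, or 408 and 416 CPM with TLX and 913 and 894 CPM in control. The groups were far apart next to the spread within each, at 412 ± 5.79 CPM with TLX and 904 ± 13.8 CPM in control (SD, n = 2). The log2 fold change was -1.13 (SE 0.078, 95% interval -1.30 to -0.97; edgeR adjusted p = 5.77e-10). By p-value it was the gene of rank 12 among the 11024 tested. Over 13 alternatives it ranged from -1.15 to -1.12, and it passed in each.

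The summed level of the group was lower with TLX with Ndrg1 counted in, and not without it. The 32 genes summed to 1805 and 1799.8 CPM in the TLX libraries and 2286 and 2273 CPM in the control libraries. Without Ndrg1, the other 31 summed to 1397 and 1384 CPM with TLX and 1373 and 1379 CPM in control. The mean sum was lower by 477 CPM with Ndrg1 included, of which Ndrg1 itself was lower by 492 CPM, and higher by 14.9 CPM with TLX without it. Ndrg1 made up 22.6% and 23.1% of the reads on these genes in the TLX libraries and 40.0% and 39.3% in the control libraries.

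**Figure D3:**
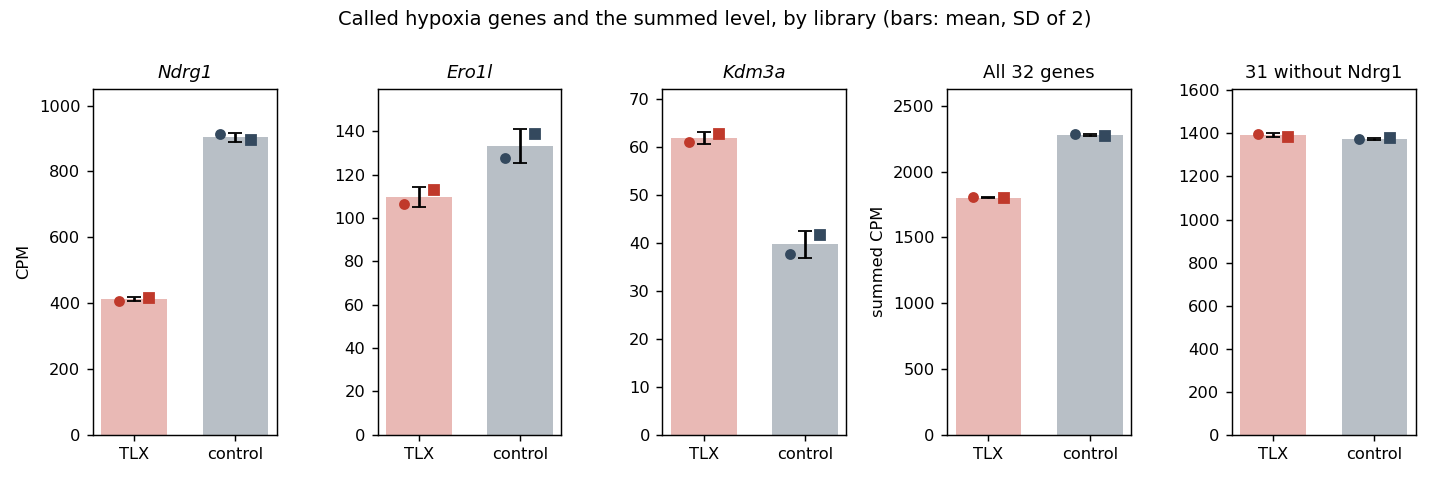
CPM of Ndrg1, Ero1l and Kdm3a and summed CPM of all 32 hypoxia genes and of the 31 without Ndrg1, in TLX and control libraries; bars are means, error bars the SD over 2 libraries, circles replicate 1 and squares replicate 2. Summed over all 32 the TLX libraries are lower (1805 and 1799.8 against 2286 and 2273 CPM), whereas without Ndrg1 the groups lie close together (1397 and 1384 against 1373 and 1379 CPM).

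The other NDRG genes were looked up after the values of Ndrg1 were seen, and none of them was called lower. Ndrg3 had 45.6 and 51 CPM with TLX and 38.7 and 44.4 CPM in control (log2 fold change 0.21, adjusted p = 0.159; 0.031 without control replicate 2 and up to 1.0 over the alternatives). Ndrg2 and Ndrg4 had at most 2 counts in any library. Mycn, the repressor in the gene's name, had at most 1 count in any library. The related repressor gene Myc, also chosen after its values were seen, was itself lower with TLX, at 94.8 and 102 CPM against 280.4 and 273 CPM in control (log2 fold change -1.49, adjusted p = 6.61e-12). Its part in the level of Ndrg1 was not tested.

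Kdm3a was the one hypoxia gene called higher. It encodes a histone demethylase that needs oxygen to work and is a direct HIF target. It was counted 528 and 497 times in the TLX libraries and 315 and 414 times in the control libraries, or 61.1 and 62.7 CPM with TLX and 37.7 and 41.7 CPM in control. Both TLX libraries lay well above both control libraries, and the log2 fold change was 0.64 (SE 0.093, 95% interval 0.44 to 0.83; edgeR adjusted p = 3.48e-05). Over the 13 alternatives it ranged from 0.57 to 0.71 and passed in each (adjusted p of 7.24e-09 to 0.00248). Its paralogs, looked up after its values were seen, did not pass: Kdm3b had 122 and 145 CPM with TLX and 120.4 and 122 CPM in control (log2 fold change 0.14, adjusted p = 0.295), and Jmjd1c 44.5 and 53.9 CPM with TLX and 56.8 and 59.2 CPM in control (log2 fold change -0.24, adjusted p = 0.0951; 0.0394 without control replicate 1 and up to 1.0 over the alternatives).

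Ero1l fell, by little and not under every setting. It encodes the oxidase that recharges protein disulfide isomerase in the endoplasmic reticulum, and it is a known target of HIF and of the stress factor CHOP. It had 106 and 113 CPM in the TLX libraries and 128 and 139 CPM in the control libraries, with both TLX libraries lower. The log2 fold change was -0.28 (SE 0.081, 95% interval -0.45 to -0.11; edgeR adjusted p = 0.0179). It did not pass in DESeq2 (adjusted p = 0.0791), against a 1.2-fold change, or without TLX replicate 1, TLX replicate 2 or control replicate 2. Over the alternatives its log2 fold change ranged from -0.34 to -0.22. Ddit3, the gene of CHOP, chosen after its values were seen, had 156 and 174 CPM with TLX and 514 and 481 CPM in control (log2 fold change -1.59, adjusted p = 4.65e-12), and its part in the level of Ero1l was not tested. The pancreatic paralog Ero1lb, also chosen afterwards, was at 6.59 and 6.56 CPM with TLX and 5.75 and 7.45 CPM in control and did not pass (adjusted p = 0.962). Atf4, a further stress regulator gene looked up afterwards, had 737 and 731 CPM with TLX and 813 and 837 CPM in control. It did not pass (log2 fold change -0.17, edgeR adjusted p = 0.147).

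Promoter sequences bear on these genes because HIF binds a short core that reads ACGTG or GCGTG, and TLX a site that reads AAGTCA. RefSeq windows of 300 bases on build GRCm38.p6, from 250 before to 50 after a transcript start, were found for 27 of the 32 genes. Epas1, Bnip3l, Plod2, Stc1 and Ndrg1 had no entry. The promoters below are those of Kdm3a, which rose, of Ero1l, which fell, and of Wsb1, which did not pass and holds the most ACGTG matches of the set; capitals mark the HIF core letters on either strand.
Kdm3a, chr6:71632868-71633167, minus strand: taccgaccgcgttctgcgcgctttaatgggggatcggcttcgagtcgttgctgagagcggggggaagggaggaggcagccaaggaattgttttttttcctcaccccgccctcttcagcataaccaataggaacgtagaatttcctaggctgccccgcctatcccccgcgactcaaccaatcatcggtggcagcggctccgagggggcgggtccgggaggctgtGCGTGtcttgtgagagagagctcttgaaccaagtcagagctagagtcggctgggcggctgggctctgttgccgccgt
Ero1l (Ero1a in RefSeq), chr14:45318523-45318822, minus strand: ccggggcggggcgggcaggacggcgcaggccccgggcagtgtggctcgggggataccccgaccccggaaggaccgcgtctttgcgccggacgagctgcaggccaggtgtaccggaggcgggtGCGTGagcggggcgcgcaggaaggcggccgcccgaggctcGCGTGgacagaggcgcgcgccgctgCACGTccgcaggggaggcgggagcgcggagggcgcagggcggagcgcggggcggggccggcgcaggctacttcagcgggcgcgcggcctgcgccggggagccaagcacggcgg
Wsb1, chr11:79254646-79254945, minus strand: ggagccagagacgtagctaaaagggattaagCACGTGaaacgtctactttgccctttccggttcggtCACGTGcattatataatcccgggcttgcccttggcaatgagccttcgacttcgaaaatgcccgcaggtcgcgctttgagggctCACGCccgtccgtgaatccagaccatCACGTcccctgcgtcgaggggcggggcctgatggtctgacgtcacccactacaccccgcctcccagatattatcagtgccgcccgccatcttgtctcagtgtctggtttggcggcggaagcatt

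The Kdm3a window held a single core match, GCGTG, whose first base lies 27 bases before the start. It also held AAGTCA, from base 4 of the transcript, and the 2 further Kdm3a start sites in RefSeq had no core match. The Ero1l window held GCGTG at 128 and 88 bases before the start and ACGTG, on the other strand, at 63. In the Wsb1 window 5 matches to ACGTG were counted, of which 4 come from a pair of CACGTG palindromes that read the same on both strands. The window also held GCGTG, on the other strand, at 100 bases before the start. The further Wsb1 start site in RefSeq had no core match. A match to the letters is no evidence of binding.

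Counting matches on both strands, with overlaps allowed, 23 of the 27 genes (85.2%) had ACGTG or GCGTG in at least 1 window, against 46.7% of 27025 mouse genes with an entry. Among genes tested here the shares were 17 of 21 hypoxia genes (81.0%) and 69.0% of 8791 genes. ACGTG alone was found for 12 of the 21 tested hypoxia genes (57.1%), against 30.2% of the tested genes. AAGTCA was found for 3 of the 27 genes, Egln2, Car12 and Kdm3a (11.1%), against 17.0% of genes with an entry, and for 3 of the 21 tested hypoxia genes (14.3%), against 1146 of 8791 tested genes (13.04%). These shares are descriptions, and base composition was not matched.

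Genes of the pathway outside the 32 were read from lists of HIF coactivators and further targets. Of 11 coactivators and other regulators 1 rose and 1 fell (9.09% each), close to the 7.79% higher and 9.04% lower among all tested genes. Ep300, the coactivator p300, had 124 and 132 CPM with TLX and 103 and 107 CPM in control (log2 fold change 0.29, adjusted p = 0.015). It did not pass in DESeq2, against a 1.2-fold change or without either TLX replicate. Cited2, a HIF target that competes with HIF for p300, fell to 111 and 108 CPM with TLX, against 165 and 169.9 CPM in control (log2 fold change -0.61, adjusted p = 5.45e-06). It passed in all 13 alternatives. The median of the list was -0.02.

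HIF targets of glucose metabolism moved in both directions. The test called 3 of 19 higher (15.8%) and 2 lower (10.5%), against 7.79% and 9.04% of all tested genes, and the median log2 fold change was 0.073. The hexokinase gene Hk1 rose (0.42) while its hypoxia-responsive relative Hk2 fell (-0.29), with adjusted p of 0.00102 and 0.00834. Pdk1, which shuts pyruvate out of mitochondria, rose by 0.49, Pfkl by 0.28, and Eno2 had -0.76 (adjusted p of 0.014, 0.0248 and 3.38e-06). Of these, Eno2 passed in all 13 alternatives, and Hk1 missed in 1, against a fold of 1.2. Hk2, Pdk1 and Pfkl did not pass against that fold either. Hk2 did not pass without either TLX replicate, Pdk1 in DESeq2 (0.161) or without TLX replicate 2 or control replicate 2, and Pfkl in DESeq2 (0.110) or without any one of TLX replicate 1, TLX replicate 2 and control replicate 2 (adjusted p up to 0.761, 0.195 and 0.838 over the alternatives).

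Among the other HIF targets more genes fell than rose. Of 15 tested, 1 rose (6.67%) and 5 fell (33.3%), against 7.79% and 9.04% of all tested genes, and the median log2 fold change was -0.11. Angptl4, an inhibitor of lipoprotein lipase, had 6.36 and 7.82 CPM with TLX and 23.1 and 24.5 CPM in control (log2 fold change -1.75, adjusted p = 1.93e-08). Hilpda, a lipid droplet protein, fell to 31.3 and 33.4 CPM with TLX, against 60.3 and 59 CPM in control (-0.88, adjusted p = 5.36e-07). The vessel growth factor gene Vegfa had a log2 fold change of -0.51 and the lipoprotein receptor gene Vldlr of -0.43 (adjusted p of 9.11e-05 and 0.00306). Vldlr did not pass against a 1.2-fold change or without TLX replicate 1. Nos2, the inducible nitric oxide synthase gene, named here after its values were seen, was low at 1.27 and 1.51 CPM with TLX and 4.55 and 3.12 CPM in control (-1.44, adjusted p = 0.00381; 0.0518 without control replicate 1 and 0.000203 to 0.0518 over the alternatives). The heme oxygenase gene Hmox1, which oxidative stress also raises, rose by 0.50 (adjusted p = 6.9e-05). This list, like the others, was chosen with earlier results of these data known. The difference in share between it and the 32 genes was not tested.

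**Figure D4:**
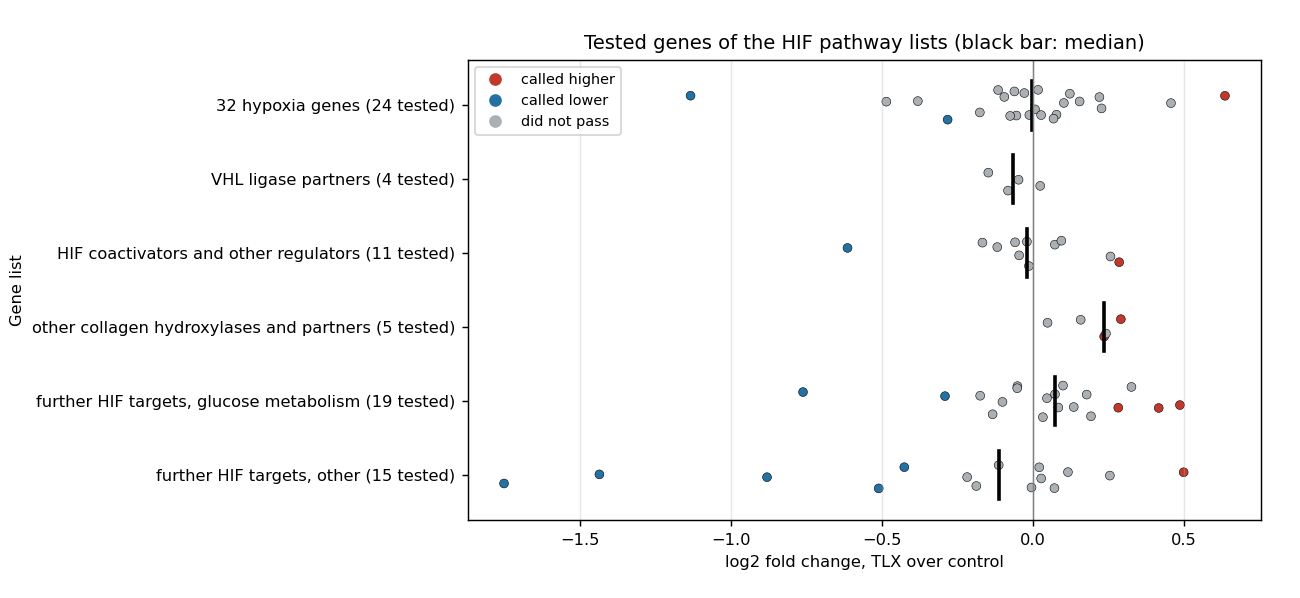
Log2 fold change of TLX over control for the tested genes of the 32 hypoxia genes and of 5 further lists of the HIF pathway; each point is a gene, colours mark genes called higher, called lower or not passed, black bars are list medians and the vertical scatter within a list has no meaning. Medians run from -0.11 for the other HIF targets to 0.24 for the other collagen hydroxylases, and the falls beyond -1 are Ndrg1, Angptl4 and Nos2.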

How the data were processed

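The authors deposited a table of raw read counts per feature, not normalized and in whole numbers, with the length of each feature, per the file headers. TopHat2 2.0.13 and mm9 are named in the submitters' processing notes. The sources used here do not give the counter, the annotation, the use of strand or the treatment of reads with several matches. Of 56826 rows, 33353 are FANTOM3 clone rows, which take 23.3% to 25.1% of the counts of a library. Tests started from the other 23473 rows, since the sources do not say whether clone reads are also counted in genes. Library sizes were totals over the 11024 of these rows that passed the filter on low counts. The ribosomal RNA row Rn45s took 12.2% to 16.7% of gene-row counts.

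Low counts were removed by filterByExpr at a minimum of 10, TMM set the scaling, and TLX was tested against control with edgeR's quasi-likelihood F-test (2 residual degrees of freedom), with Benjamini-Hochberg adjustment over 11024 genes at 0.05. The SE is the log2 fold change divided by the square root of F. The software was edgeR 4.0.16 under R 4.3.3, with DESeq2 1.42.0 and limma 3.58.1 for alternatives. Gene-wise chi-square medians were 0.718 within TLX, 1.07 within control and 1.99 to 2.28 between groups, against 0.455 for sampling noise, so no library was taken for a copy.

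The hypoxia genes, the further lists and the rule for naming genes were chosen with earlier results of these data known. All 32 genes are named, as are called genes of each further list, at most 4 in each direction. RefSeq promoters were matched by symbol or synonym. Proteins were not analysed here. As alternatives, scaling was by DESeq2 size factors, by total counts, over all feature rows or without Rn45s. The filter was dropped or set to 10 CPM on average, and the test was DESeq2's, limma-voom's or edgeR's against a 1.2-fold change. Each library was left out in turn, and the replicate number was added as a block, which the ranges over 13 alternatives do not include.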

Additional observations from a re-analysis of the deposited data

How the results depend on the processing

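Ndrg1, Kdm3a and Nr2e1 kept their direction and passed under each alternative run. DESeq2's test called 355 genes higher and 484 lower, and 1 hypoxia gene lower, since Ero1l was lost. The test against a 1.2-fold change called 166 higher, 378 lower and 1 hypoxia gene lower. That test asks whether a change exceeds 1.2-fold, not whether it differs from 0. Leaving out a library gave 388 to 993 genes higher and 585 to 1060 lower, with 1 to 2 hypoxia genes higher and 1 to 2 lower. Without a replicate the lone library of its group is assumed to vary like the other group. With the replicate block 1495 genes were called higher, and 2 hypoxia genes higher and 4 lower, since Egln1, Stc2 and Car12 were added. Among all tested genes, 1487 were called lower with the replicate block. The titles share the numbers 1 and 2 between groups, but no other label pairs the libraries. Between groups, the gene-wise chi-square median was 1.99 and 2.04 for libraries of the same number. For those of different number it was 2.28 and 2.25. The correlation of replicate differences between groups was 0.11 across genes. With 2 pairs, these values do not settle whether the libraries are paired.

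Log2 fold changes near 0 turned sign in genes that never passed. Leaving out a library gave -0.13 to 0.074 for Hif1a, -0.055 to 0.026 for Hif1an, -0.17 to 0.056 for Vhl, -0.19 to 0.0053 for Bnip3l, -0.039 to 0.081 for Pfkfb4, -0.11 to 0.13 for Ddit4, -0.051 to 0.11 for Wsb1 and -0.18 to 0.19 for Ero1lb. Ddit4 was also at -2.3e-05 with total counts and -0.0047 with the 10 CPM filter. The cause was not tested.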
